A study of Mus musculus with 6 samples.

Results

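The clustered histone genes were followed in whole mouse lenses that lack Cd24a. Members were chosen by symbol alone, as H1f, H2ac, H2bc, H3c or H4c followed by a number, which gave 72 of the 55416 genes in the count table. They comprised 12 linker histone genes (H1), 19 H2A genes, 17 H2B genes, 12 H3 genes and 12 H4 genes. Of these, 56 lie on chromosome 13 and 10 on chromosome 3. The other 6 are H1 genes outside these clusters, H1f0, H1f7, H1f8, H1f9, H1f10 and H1f11-ps, so the name "clustered" does not cover every gene that the symbols select. GENCODE M21 annotates 3 of the members, H1f11-ps, H2ac5-ps and H2ac14, as pseudogenes.

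Nucleosomes wrap DNA around a core of H2A, H2B, H3 and H4, and H1 binds the linker DNA at its entry and exit. Most genes of the clusters have no introns and are transcribed mainly in S phase. Their mRNAs end in a conserved stem-loop, bound by the stem-loop binding protein SLBP, in place of a poly(A) tail. Some of them also give polyadenylated transcripts in cells that have left the cycle, and adult lens fibre cells, which make up most of the lens, no longer divide. Total RNA libraries made after ribosomal RNA depletion can hold both kinds of transcript, whereas poly(A) selection loses those without a tail.

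The samples were 3 libraries from Cd24a germline knockout lenses (strain label C57BL/6) and 3 from wild-type lenses (strain label C57BL/har), with 2 lenses in each. Strain label and genotype therefore cannot be told apart. The sample labels give an age of 8 weeks and the series text 7 weeks. The deletion is germline, so every cell of the animal lacks the gene, which encodes a small membrane-anchored surface glycoprotein. The series text calls the samples of a group biological replicates.

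Library totals ran from 5384542 to 7302951 counts. Cd24a had 71, 58 and 45 counts in knockout libraries, against 20656, 18730 and 17514 in wild-type libraries. The libraries numbered 3 in both groups had a female pattern of Xist and Y-linked reads and the other 4 a male one. The fibre cell crystallin Cryaa averaged 76959 CPM in knockout and 81202 CPM in wild-type libraries (CPM are counts scaled to a library of 1000000 after TMM scaling, which corrects for library composition). Lim2, a fibre membrane protein on the same marker list, had 0 counts in every library.

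The stem-loop was looked up first, since it is the feature that defines these mRNAs. The pattern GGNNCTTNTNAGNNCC was searched on the sense strand of the GENCODE M21 transcripts. It was found after the coding sequence in 43 of the 69 members with a coding transcript, 21 to 58 bases after its last base. In the first 100 bases after the coding sequence, 9 of 22458 other coding genes (0.0401%) held it. The other coding genes include histone genes that the symbols do not select, such as H2ax and H2aw. Whether the 9 are histone genes is not given here. By class it was present in 4 of 12 H1, 10 of 19 H2A, 9 of 17 H2B, 9 of 12 H3 and 11 of 12 H4 genes. In 13 members the annotated transcript stops at the end of the coding sequence, so that the search could not reach a stem-loop there. H2ac10 and H2ac12, with 1 and 2 annotated bases after it, are likewise too short to hold the pattern there. The sites of the called H1f2 and H1f3, of H1f4, and of a leading H2A, H3 and H4 gene are shown with 5 bases on each side, stem-loop in capitals.
H1f2: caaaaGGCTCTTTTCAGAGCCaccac
H1f3: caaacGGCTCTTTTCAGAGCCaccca
H1f4: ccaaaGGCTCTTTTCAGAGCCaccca
H2ac20: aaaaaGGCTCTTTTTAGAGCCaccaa
H3c6: aaaacGGCTCTTTTAAGAGCCacctc
H4c4: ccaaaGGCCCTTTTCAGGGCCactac

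The form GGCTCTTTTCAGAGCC was the most frequent and occurred in 24 members, 3 H1, 9 H2A, 7 H2B and 5 H3 genes. It occurred in 0 H4 genes. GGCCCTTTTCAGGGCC, the form of H4c4, occurred in 6 members, all of them H4 genes. H2bc4 has no such site annotated. Its 1 transcript is spliced from 2 exons, and the 742 bases after its coding sequence do not hold these letters.

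Reads fell on few members. Over all libraries, 66 members had at least 1 count, 21 of them 10 counts or fewer. The 6 members without a count were H1f7, H1f9, H2ac18, H2ac24, H2bc23 and H3c14. H2bc4, H1f2, H1f0 and H1f4 held 69.7% of the 12539 counts of all members. The members took 0.0394%, 0.0384% and 0.0362% of the counts of knockout libraries 1 to 3, against 0.0292%, 0.0309% and 0.0306% in wild-type libraries 1 to 3. These shares are of the library total, without TMM scaling. With TMM scaling the members summed to 367 ± 12.3 CPM in knockout and 316 ± 15.3 CPM in wild-type lenses (SD, n = 3 each), a ratio of 1.16.

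Near-identical coding sequences limit what can be said of single genes. Of the 72 members, 36 share at least 50% of their 50-base windows with a transcript of another gene. The median share was 78.9% for H2A, 62.0% for H3, 49.7% for H2B, 39.9% for H4 and 0% for H1. H2ac18 and H3c14, both without a count, share 100% of theirs. H2ac19, H3c13 and H2bc18 also share 100%, with 35, 26 and 18 counts over all libraries. H1f7 and H1f9, without a count as well, share 0%. The sources used here do not say how reads with several matches were counted, so levels of members with high shares are uncertain. H1f2 shares 8.54% and H1f3 2.25%, while H2bc4 shares 30.6%.

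**Figure D1:**
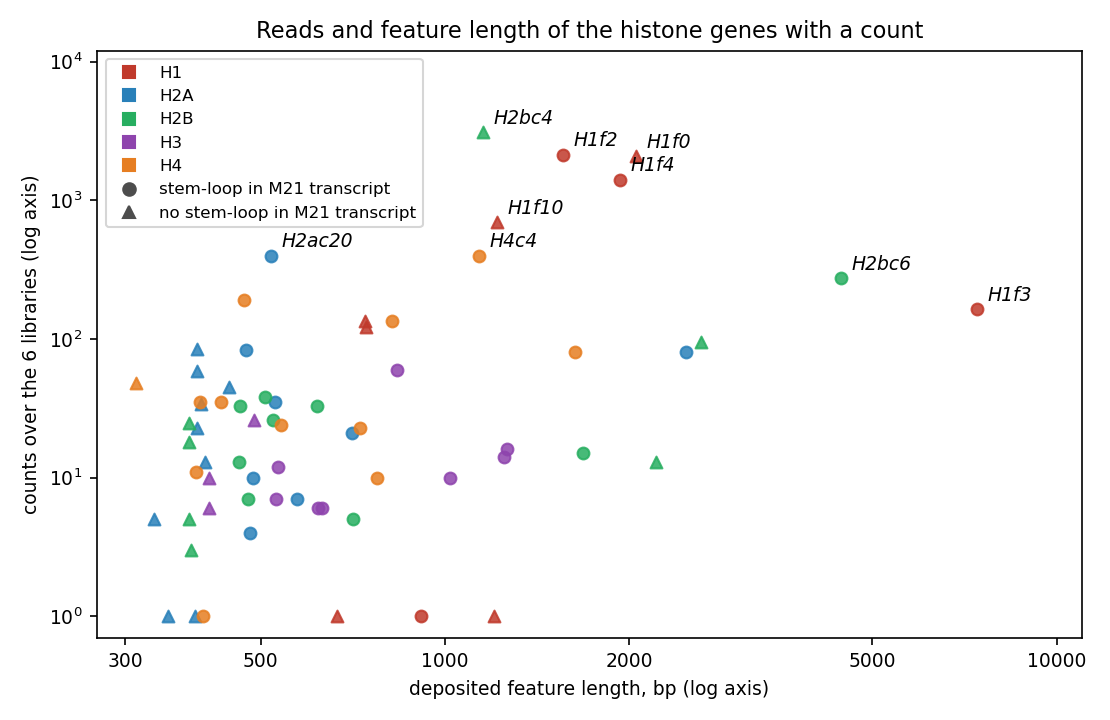
Counts over the 6 libraries against the deposited feature length (both axes logarithmic) for the 66 histone genes with a count, coloured by class. Circles have the stem-loop in an M21 transcript and triangles do not. H2bc4, H1f2, H1f0 and H1f4 lie above all others, with lengths of 1156, 1560, 2055 and 1930 bp.

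Most reads fell on long features. The 20 members with a feature over 1000 bp held 84.6% of the members' counts and the other 52 held 15.4%. Per length the medians of the 2 sets were close, at 0.762 FPKM over the libraries for the long features and 0.830 FPKM for the others. The highest member of each set did differ, at 73.6 FPKM for the long features and 20.7 FPKM for the others. In H1f2, 840 annotated bases follow the stem-loop, in H1f4 1153 and in H1f3 4884. The counts do not tell on which side of the stem-loop the reads lie. Members with the stem-loop in the annotation held 46.8% of the counts and those without it 53.2%, most of these from H2bc4, H1f0 and H1f10.

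Levels between genes were compared per length, as FPKM (counts per kilobase of feature, scaled by library total). H2bc4 was highest, at 84.4 ± 2.83 FPKM in knockout and 62.8 ± 2.61 FPKM in wild-type lenses (SD, n = 3 each). H1f2 followed at 44.9 ± 3.20 FPKM in knockout and 30.2 ± 0.994 FPKM in wild-type lenses. H1f0, a linker histone of non-dividing and differentiated cells, stood at 28.2 ± 2.67 FPKM in knockout and 26.4 ± 1.27 FPKM in wild-type lenses. These 3 genes stood apart from one another by more than their SDs in both groups.

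H2ac20, the most abundant H2A gene, reached 21.2 ± 2.18 FPKM in knockout and 20.2 ± 1.57 FPKM in wild-type lenses. H1f4 reached 19.6 ± 2.41 FPKM in knockout and 19.6 ± 1.02 FPKM in wild-type lenses. These neighbours in the order did not differ from each other beyond their spread in either group. H1f10 followed at 17.6 ± 1.71 FPKM in knockout and 13.7 ± 0.873 FPKM in wild-type lenses. H4c8 led the H4 class, at 10.7 ± 2.37 FPKM in knockout and 11.1 ± 2.74 FPKM in wild-type lenses, and H4c4 was at 9.87 ± 0.697 FPKM in knockout and 9.11 ± 0.394 FPKM in wild-type lenses, which lay within the spread of H4c8.

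H2ac15 reached 8.36 ± 0.625 FPKM in knockout and 3.89 ± 3.00 FPKM in wild-type lenses and H2ac4 5.54 ± 1.16 FPKM in knockout and 4.05 ± 1.09 FPKM in wild-type lenses. In wild-type lenses the SD of H2ac15 was close to its mean. H4c3 stood at 4.27 ± 1.40 FPKM in knockout and 4.60 ± 1.09 FPKM in wild-type lenses. Behind H2bc4, the H2B genes H2bc3 and H2bc11 had too few reads to be tested and stood at 2.01 ± 1.14 FPKM in knockout and 2.03 ± 0.259 FPKM in wild-type lenses, and at 2.02 ± 1.09 FPKM in knockout and 1.83 ± 0.618 FPKM in wild-type lenses. The H2B class thus had 1 gene far above all others.

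Of the 5 classes, H3 had the leading gene with the fewest counts. H3c6 stood at 2.26 ± 0.641 FPKM in knockout and 1.64 ± 0.553 FPKM in wild-type lenses, H3c13 at 1.88 ± 1.94 FPKM in knockout and 1.02 ± 0.472 FPKM in wild-type lenses and H3c11 at 0.981 ± 1.02 FPKM in knockout and 0.359 ± 0.0278 FPKM in wild-type lenses, the last 2 untested. For comparison, the replacement H3 genes H3f3a and H3f3b, which have introns and poly(A) tails, stood at 21.02 ± 0.310 FPKM in knockout and 18.04 ± 1.68 FPKM in wild-type lenses, and at 21.3 ± 2.60 FPKM in knockout and 18.5 ± 0.768 FPKM in wild-type lenses. Neither passed the test (H3f3a log2 0.11, SE 0.07, edgeR adjusted p = 0.45, H3f3b log2 0.10, SE 0.08, edgeR adjusted p = 0.57). FPKM are scaled by library total alone and serve here to compare genes. Between the groups the tests use TMM scaling, under which H1f0 and H2ac20 had log2 fold changes of -0.01 and -0.05 although their mean FPKM were higher in the knockout.

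**Figure D2:**
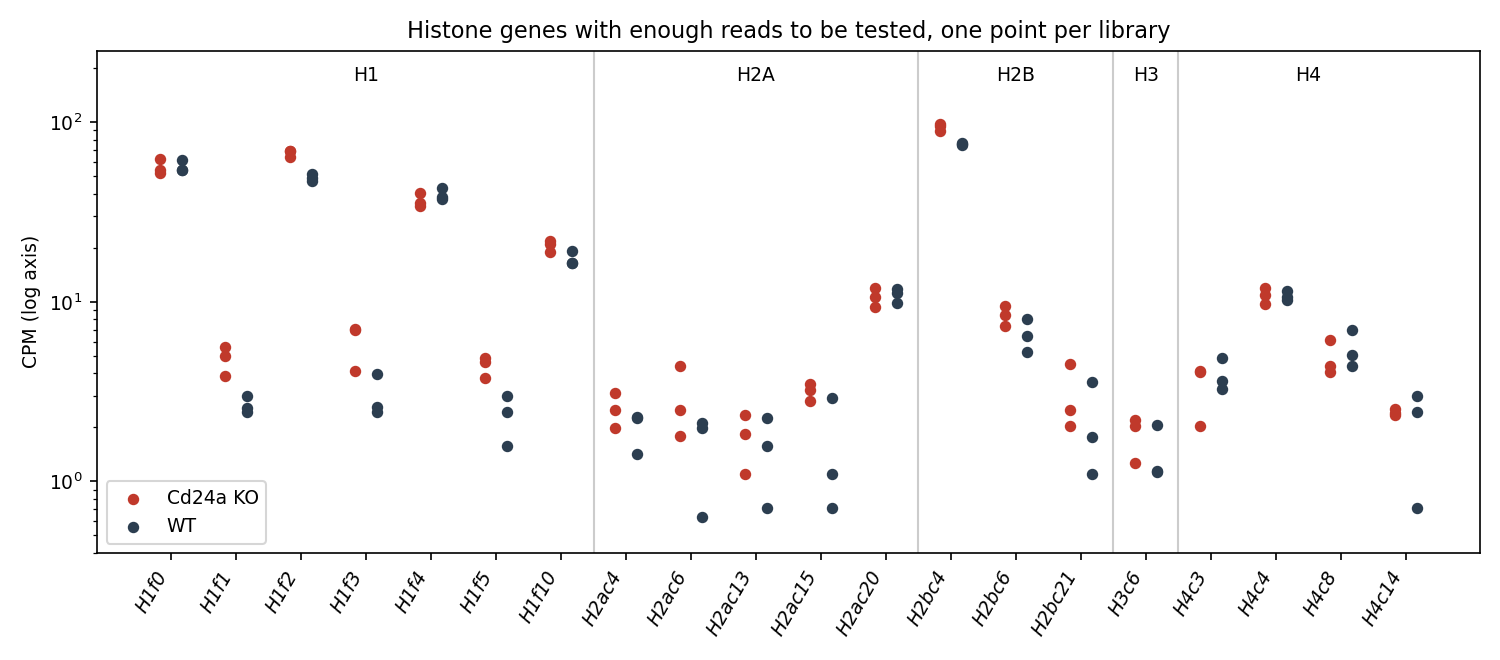
CPM of the 20 histone genes with enough reads to be tested, on a logarithmic axis, with 1 point per library, knockout (red) left of wild type (dark). For H1f1, H1f2, H1f3, H1f5 and H2bc4 every knockout point lies above every wild-type point.

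Enough reads for a test were found for 20 of the 72 members, 7 H1, 5 H2A, 3 H2B, 1 H3 and 4 H4 genes. In the fit over all 11474 genes with enough reads, the edgeR threshold (adjusted p no higher than 0.05) was passed by 861 genes (7.50%), 347 higher (3.02%) and 514 lower (4.48%) in the knockout. With scaling by library size alone the split was 1008 higher and 336 lower. Of the 20 members 3 were called, all of them higher: H1f2, H2bc4 and H1f3. The other 17 did not pass, and the remaining 52 members had too few reads. The groups did not overlap for 5 of the 20 members, while this held for 24.4% of all genes tested. A log2 fold change above 0 was found for 15 of the 20 members and 50.7% of all genes tested, with medians of 0.33 and 0.004. These counts are descriptions, since a member could also enter the test through the group in which it is high.

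H1f2 encodes H1.2, an abundant somatic linker histone. It had 69.3, 69.2 and 64.4 CPM in knockout libraries 1 to 3, against 47.1, 51.6 and 48.7 CPM in wild-type libraries 1 to 3. All knockout values lay above all wild-type values. The rise was 1.38-fold (log2 0.46, SE 0.08, edgeR adjusted p = 3.58e-04), and it was called in all 15 alternatives, with adjusted p from 6.29e-06 to 0.0038. The authors' deposited table gives a fold of 1.38 and a q-value of 5.33e-05.

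H2bc4 encodes a canonical H2B and was the member with the most reads. Its level was 98.2, 89.5 and 95.6 CPM in knockout libraries 1 to 3, against 76.5, 74.5 and 76.0 CPM in wild-type libraries 1 to 3. The groups did not overlap, and the wild-type libraries lay closer together than the knockout ones. H2bc4 rose 1.247-fold (log2 0.32, SE 0.07, edgeR adjusted p = 0.0034). It was called in all 15 alternatives, with adjusted p from 4.48e-04 to 0.0497, the highest being that without knockout replicate 1.

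H1f3 encodes H1.3, another somatic linker histone, and was scarce. It had 23, 45 and 38 counts in knockout libraries 1 to 3, against 17, 25 and 16 counts in wild-type libraries 1 to 3. Scaled to CPM this was 4.14, 7.05 and 6.99 CPM in knockout libraries 1 to 3, against 2.42, 3.95 and 2.59 CPM in wild-type libraries 1 to 3. The lowest knockout value lay just above the highest wild-type value. H1f3 rose 2.04-fold (log2 1.03, SE 0.29, edgeR adjusted p = 0.032). It did not pass when knockout replicate 2 (adjusted p = 0.12) or 3 (0.11) was left out, nor when wild-type replicate 1 (0.16) or 3 (0.11) was, nor without both libraries numbered 3 (0.24), nor in DESeq2 (0.093). The authors' deposited table gives a fold of 2.04, a q-value of 0.011 and mean FPKM of 0.816 in the knockout and 0.402 in wild type.

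The promoters of H1f2 and H1f3 are shown with that of H1f4, another abundant H1 gene of the same cluster that was not called. RefSeq promoters on GRCm38.p6 were matched for 64 members, and the 250 bases before the RefSeq start are given. In M21 H1f3 starts further upstream, at 23553262, so the window printed for it lies within its M21 transcript. Capitals mark AAACACA, a heptamer known from H1 promoters, CCAAT and TATAAA, on either strand.
H1f2, chr13:23738557-23738806, plus strand: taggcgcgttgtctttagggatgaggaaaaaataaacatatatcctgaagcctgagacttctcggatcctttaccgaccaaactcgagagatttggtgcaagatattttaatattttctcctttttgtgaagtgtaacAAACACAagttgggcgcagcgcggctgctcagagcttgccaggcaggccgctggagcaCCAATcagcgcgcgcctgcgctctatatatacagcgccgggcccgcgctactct
H1f3, chr13:23554782-23555031, plus strand: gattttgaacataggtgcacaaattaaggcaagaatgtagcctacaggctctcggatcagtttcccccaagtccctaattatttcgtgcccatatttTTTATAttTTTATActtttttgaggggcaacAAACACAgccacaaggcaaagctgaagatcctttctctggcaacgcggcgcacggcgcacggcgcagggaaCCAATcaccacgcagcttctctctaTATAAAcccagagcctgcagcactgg
H1f4, chr13:23622559-23622808, minus strand: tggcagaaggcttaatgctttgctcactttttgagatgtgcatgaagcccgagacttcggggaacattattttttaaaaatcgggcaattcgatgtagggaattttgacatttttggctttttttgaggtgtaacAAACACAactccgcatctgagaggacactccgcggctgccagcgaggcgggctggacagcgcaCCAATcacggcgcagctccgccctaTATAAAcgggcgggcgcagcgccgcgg

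The heptamer AAACACA was present in 5 of 11 H1 promoters (H1f2, H1f3, H1f4, H1f5 and H1f6), 112 to 122 bases before the start, in 2 of 17 H2A and 2 of 15 H2B promoters, and in 6.25% of all 32851 promoters of the same length. CCAAT lay 54, 51 and 52 bases before the start in H1f2, H1f3 and H1f4. CCAAT was found in 8 of 11 H1, 17 of 17 H2A, 15 of 15 H2B, 8 of 10 H3 and 3 of 11 H4 promoters, against 33.8% of all promoters. TATAAA was found in H1f3 and H1f4, not in these letters in H1f2, and in 12.4% of all promoters. The octamer ATTTGCAT, known from H2B promoters, was in 6 of 15 H2B and 6 of 17 H2A promoters, in 0 of the H1, H3 and H4 promoters and in 1.601% of all promoters. Windows of neighbouring H2A and H2B genes on opposite strands can overlap, so that 1 site counts in both classes. The octamers of H2ac1 and H2bc1, of H2ac8 and H2bc8, and of H2ac12 and H2bc12 are the same bases. The AAACACA of H2ac1 and H2bc1 is shared in the same way. All matches are letters in a window and do not show binding. AAACACA and CCAAT were present in the called H1f2 and H1f3 and in the uncalled H1f4 alike.

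Of the other H1 genes, H1f4 was at 36.6 ± 3.27 CPM in knockout and 39.6 ± 3.19 CPM in wild-type lenses (SD, n = 3 each) and did not pass (log2 -0.11, SE 0.10, edgeR adjusted p = 0.59). Its feature overlaps that of H2bc6 on the same strand, so reads of the pair cannot be told apart there. H1f0 had 56.1 ± 5.39 CPM in knockout and 56.6 ± 4.19 CPM in wild-type lenses (log2 -0.01, SE 0.09, edgeR adjusted p = 0.96). The H1f0 feature also overlaps an opposite-strand gene, Gm49544, and the strand setting is not known. Features of H1f10 and of all tested H2A genes overlap opposite-strand genes as well. That of H1f10 also overlaps Gm47286 on the same strand. In H1f4 and H1f0 the groups overlapped, and with library size alone both signs turned. H1f10, a linker histone gene outside the clusters, had 20.6 ± 1.53 CPM in knockout and 17.4 ± 1.59 CPM in wild-type lenses (log2 0.25, SE 0.12, edgeR adjusted p = 0.26).

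H1f1 and H1f5 encode the linker histones H1.1 and H1.5. H1f1 had 5.58, 5.01 and 3.86 CPM in knockout libraries 1 to 3, against 2.56, 3.00 and 2.43 CPM in wild-type libraries 1 to 3 (log2 0.85, SE 0.29, edgeR adjusted p = 0.078). H1f5 had 3.78, 4.86 and 4.60 CPM in knockout libraries 1 to 3, against 1.57, 3.00 and 2.43 CPM in wild-type libraries 1 to 3 (log2 0.93, SE 0.31, edgeR adjusted p = 0.080). In both genes the groups did not overlap, and neither passed the threshold. With scaling by library size alone, which shifts the median over all tested genes to 0.11 (log2), both were called higher (adjusted p = 0.034 and 0.037).

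**Figure D3:**
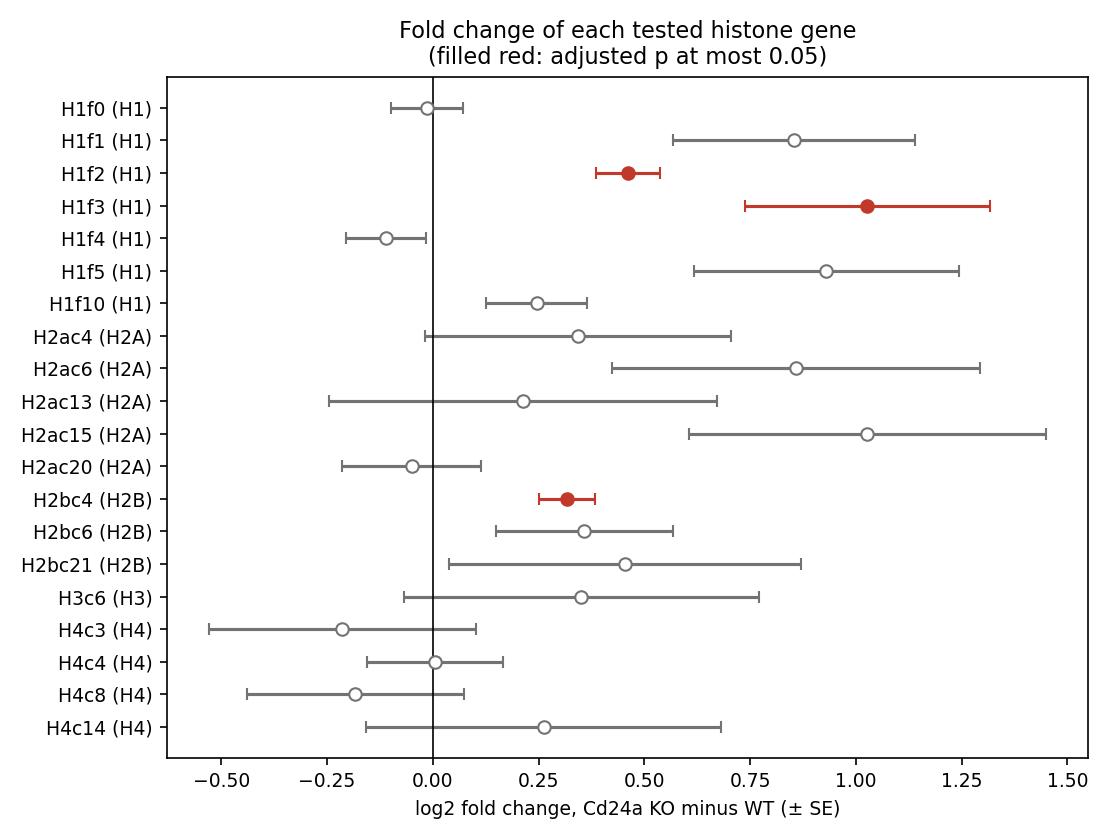
Log2 fold change, knockout minus wild type, of each tested histone gene with its standard error (edgeR). The 3 genes called are filled red, at 0.46 for H1f2, 1.03 for H1f3 and 0.32 for H2bc4, and the widest bars belong to genes with few reads.

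In the H2A class, 0 of 5 tested genes passed in edgeR, and likewise 0 in DESeq2 and 0 in limma-voom. Before adjustment 1 gene, H2ac15, was below 0.05 in each tool. It had 3.24, 2.82 and 3.49 CPM in knockout libraries 1 to 3, against 0.712, 1.10 and 2.91 CPM in wild-type libraries 1 to 3 (log2 1.03, SE 0.42, edgeR adjusted p = 0.16). Wild-type library 3 lay above the lowest knockout library, and without wild-type replicate 3 the gene was called (adjusted p = 0.023). H2ac20 was at 10.6 ± 1.24 CPM in knockout and 10.96 ± 1.00 CPM in wild-type lenses (log2 -0.05, SE 0.16, edgeR adjusted p = 0.91), with overlapping groups. H2ac4, H2ac6 and H2ac13 had log2 fold changes of 0.34, 0.86 and 0.21 with SEs of 0.36, 0.44 and 0.46, and did not pass.

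Besides H2bc4, the tested H2B genes H2bc6 and H2bc21 had log2 fold changes of 0.36 (SE 0.21) and 0.45 (SE 0.42) and did not pass. In M21 H2ac6 starts next to H2bc4 on the opposite strand. With 81 counts in all, H2ac6 has a wide error, and its groups overlapped.

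Among the 1 H3 and 4 H4 genes tested, 0 passed in edgeR, DESeq2 or limma-voom, and 0 were below 0.05 before adjustment. H3c6 had 1.26, 2.19 and 2.02 CPM in knockout libraries 1 to 3, against 1.14, 2.05 and 1.13 CPM in wild-type libraries 1 to 3 (log2 0.35, SE 0.42, edgeR adjusted p = 0.71). H4c4 had 10.9 ± 1.12 CPM in knockout and 10.8 ± 0.646 CPM in wild-type lenses (log2 0.005, SE 0.16, edgeR adjusted p = 0.99). H4c8, H4c3 and H4c14 had log2 fold changes of -0.18, -0.21 and 0.26 with SEs of 0.26, 0.32 and 0.42. With the errors of these 3 genes and of H3c6, a difference of the size of H2bc4 (log2 0.32) was not detectable at this depth.

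A class sum does not depend on how reads were split among its members and includes members with too few reads for a test, but it does not recover reads that were dropped, and the overlap of H1f4 with H2bc6 crosses 2 classes. H1 reads summed to 202, 199.9 and 187 CPM in knockout libraries 1 to 3, against 162, 185 and 164 CPM in wild-type libraries 1 to 3. H2B reads summed to 119, 104.2 and 113 CPM in knockout libraries 1 to 3, against 91.0, 91.4 and 90.9 CPM in wild-type libraries 1 to 3. In both classes all knockout sums lay above all wild-type sums, by a log2 ratio of the means of 0.20 for H1 and 0.30 for H2B. These sums are given as descriptions, with no test.

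Each of these ratios rested in part on 1 gene. Without H1f2 the H1 ratio was 0.08, and without H2bc4 the H2B ratio was 0.18. In both classes the groups then overlapped. H1 genes on chromosome 13 summed to 119 ± 6.39 CPM in knockout and 96.8 ± 7.02 CPM in wild-type lenses (SD, n = 3 each). H1 genes elsewhere, mostly H1f0 and H1f10, summed to 76.8 ± 6.38 CPM in knockout and 74.0 ± 5.77 CPM in wild-type lenses. The groups overlapped for the genes elsewhere and not for those on chromosome 13. H1f2 held 53.8% of the chromosome 13 H1 counts, and without it those groups overlapped too.

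H2A reads summed to 26.98, 24.0 and 28.5 CPM in knockout libraries 1 to 3, against 22.2, 22.4 and 24.3 CPM in wild-type libraries 1 to 3. H4 reads summed to 28.4, 23.0 and 28.3 CPM in knockout libraries 1 to 3, against 25.4, 29.2 and 27.7 CPM in wild-type libraries 1 to 3. Both classes overlapped between the groups. The H3 class was the smallest, with 25, 48 and 32 counts in knockout libraries 1 to 3, against 22, 29 and 17 counts in wild-type libraries 1 to 3, and its sums in CPM also overlapped. The log2 ratio of the means was 0.21 for H2A, 0.78 for H3 and -0.04 for H4, so that H3 had the largest ratio of the 5 classes on the fewest counts. The 52 untested members together had 20.8 ± 0.244 CPM in knockout and 19.3 ± 3.16 CPM in wild-type lenses, which differed by less than the spread of the wild-type libraries.

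**Figure D4:**
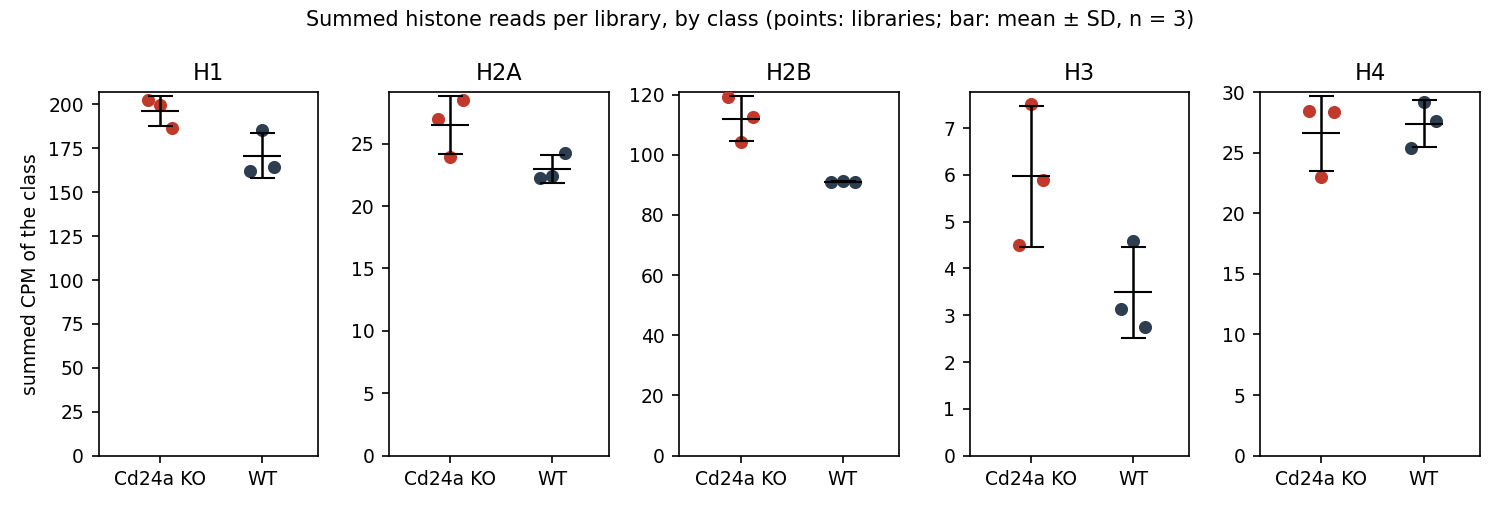
Summed CPM of the histone genes of each class, with 1 point per library and the mean ± SD of 3 libraries, knockout left of wild type. In H1 and H2B every knockout library lies above every wild-type library, and in H2A, H3 and H4 the groups overlap.

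The 3 called members lie in the same stretch of chromosome 13. In M21 (GRCm38) the 56 members there span 2218 kb, with a largest gap of 1488 kb. H1f3 and H1f2 start 186 kb apart, with H2bc4 between them, 54.6 kb from H1f2. The interval, whose ends are the called H1f3 and H1f2, holds 9 of the 15 tested members of chromosome 13, including these 3. The 6 others, H3c6, H4c4, H2bc6, H1f4, H2ac6 and H4c3, had log2 fold changes from -0.21 to 0.86 and were not called. The 1 other tested gene there, Hfe, which encodes a regulator of iron uptake, was lower in the knockout (log2 -0.45, edgeR adjusted p = 0.037). The 10 members on chromosome 3 summed to 19.4 ± 2.77 CPM in knockout and 19.0 ± 1.29 CPM in wild-type lenses, with overlapping groups.

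**Figure D5:**
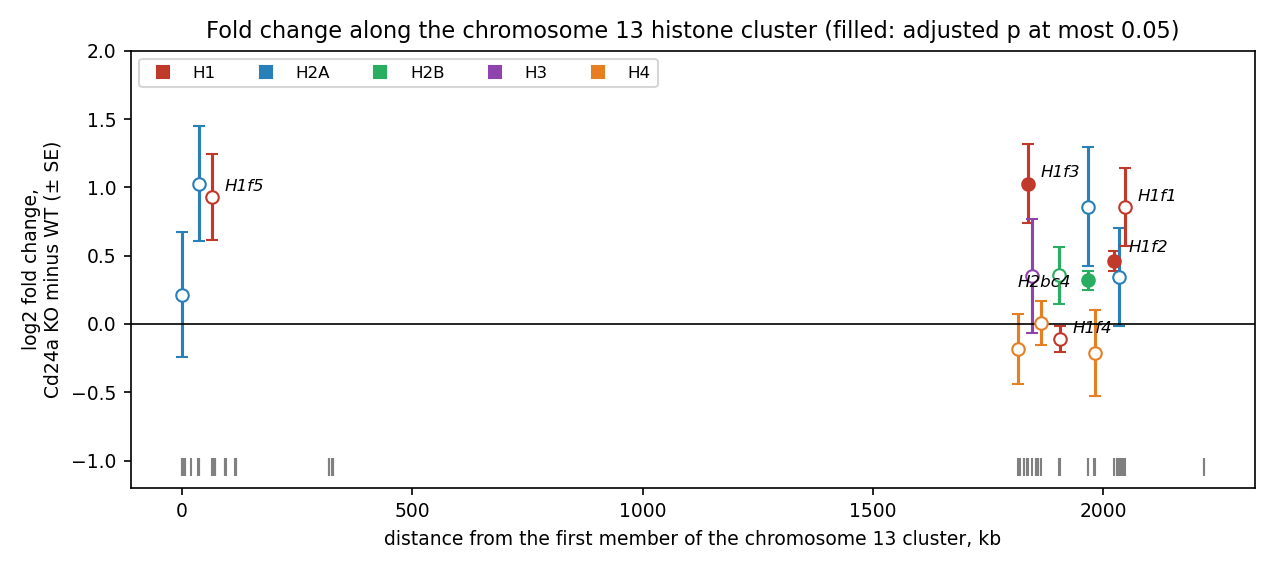
Log2 fold change, knockout minus wild type, with its standard error (edgeR) of the tested histone genes of chromosome 13 against the distance of their start from the first member, with ticks for all 56 members. H1f3, H2bc4 and H1f2, filled, lie within 186 kb of each other, and H1f4 at log2 -0.11 lies between them.

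Genes around histone supply were read beside the members. Of 25 replication and S phase genes 20 could be tested. In edgeR, DESeq2 and limma-voom 0 passed, and the median log2 fold change was 0.08. Before adjustment 2 were below 0.05 in edgeR and 0 in DESeq2. These 2 were higher in the knockout: E2f1 (log2 0.84, SE 0.34, edgeR adjusted p = 0.16) and Top2a (log2 0.38, SE 0.17, edgeR adjusted p = 0.21). The groups did not overlap for E2f1 and overlapped for Top2a. Pcna, the sliding clamp of DNA polymerase and the most abundant of this list per length, stood at 3.92 ± 0.568 FPKM in knockout and 4.14 ± 0.378 FPKM in wild-type lenses. It had 9.53, 7.36 and 10.5 CPM in knockout libraries 1 to 3, against 11.4, 9.94 and 9.70 CPM in wild-type libraries 1 to 3 (log2 -0.19, SE 0.18, edgeR adjusted p = 0.62). Mki67, a proliferation marker with the most reads of this list, had 37.1, 36.0 and 34.0 CPM in knockout libraries 1 to 3, against 30.1, 30.1 and 34.3 CPM in wild-type libraries 1 to 3 (log2 0.18, SE 0.09, edgeR adjusted p = 0.29). The groups overlapped for Pcna and for Mki67. In whole lenses, fewer cells of a type and less RNA per cell cannot be told apart, and this holds for all levels given here.

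Of 16 genes of histone mRNA 3′ end processing and turnover 14 were tested, with 2 lower and 0 higher and a median log2 fold change of -0.07. Cstf2, the cleavage stimulation factor subunit CstF-64, fell to 77.9 ± 4.49 CPM in knockout lenses, against 109 ± 5.19 CPM in wild-type lenses (log2 -0.49, SE 0.07, edgeR adjusted p = 5.96e-05). Cpsf2, a subunit of the cleavage complex, fell to 28.1 ± 1.42 CPM in knockout lenses, against 37.6 ± 1.98 CPM in wild-type lenses (log2 -0.42, SE 0.09, edgeR adjusted p = 0.0063). Both proteins act on polyadenylated mRNAs as well. Slbp itself had 8.81 ± 1.28 CPM in knockout and 9.18 ± 1.34 CPM in wild-type lenses and did not pass (log2 -0.06, SE 0.19, edgeR adjusted p = 0.91).

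Of 9 tested genes on the variant histone list, which takes in H2A, H3 and H4 genes outside the symbol rule, 1 was higher and 1 lower. The median log2 fold change was 0.10. Macroh2a2, a histone H2A variant with a large globular domain, fell to 26.4, 26.3 and 19.9 CPM in knockout libraries 1 to 3, against 39.7, 39.3 and 39.5 CPM in wild-type libraries 1 to 3 (log2 -0.70, SE 0.11, edgeR adjusted p = 1.42e-04). H2aw, an H2A gene that the symbol rule does not select, rose to 8.63, 6.42 and 6.80 CPM in knockout libraries 1 to 3, against 2.85, 4.74 and 4.37 CPM in wild-type libraries 1 to 3 (log2 0.87, SE 0.25, edgeR adjusted p = 0.033). The groups did not overlap in either gene. H2aw did not pass in DESeq2 (adjusted p = 0.11), and both genes passed in limma-voom.

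Among 16 tested histone chaperones 1 was higher and 1 lower, with a median log2 fold change of 0.06. Nap1l1, a chaperone of H2A and H2B, rose to 1618 ± 62.6 CPM in knockout lenses, against 1208 ± 32.3 CPM in wild-type lenses (log2 0.42, SE 0.05, edgeR adjusted p = 1.91e-05). Hjurp, the chaperone of the centromeric H3 variant Cenpa, fell to 3.38 ± 1.64 CPM in knockout lenses, against 8.87 ± 2.21 CPM in wild-type lenses (log2 -1.37, SE 0.29, edgeR adjusted p = 0.0039). Over all 11474 genes tested the median was 0.004.

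Marker sums of lens epithelium and of neighbouring tissues are given beside these values. The 8 lens fibre markers, with Lim2 at 0 counts, summed to 223438 to 252954 CPM in knockout and 239883 to 254294 CPM in wild-type libraries. Of the 7 tested, 1 was called lower, Bfsp2 (log2 -0.27, SE 0.06, edgeR adjusted p = 0.0028), and 0 higher. Bfsp2 also passed in DESeq2 and limma-voom. The 8 lens epithelium markers summed to 538 to 552 CPM in knockout and 645 to 671 CPM in wild-type libraries, with 4 of 8 called lower in edgeR and 3 in DESeq2. The 8 pigment epithelium markers summed to 11.3 to 24.6 CPM in knockout and 33.5 to 53.2 CPM in wild-type libraries, with 3 of 4 tested called lower in edgeR and 2 in DESeq2. The 8 photoreceptor markers summed to 154 to 278 CPM in knockout and 166 to 421 CPM in wild-type libraries, and of these Gnat1 was called lower in edgeR (adjusted p = 0.039), with 0 calls in DESeq2 and 0 in limma-voom. The 8 cornea and conjunctiva markers, with Krt12 and Kera at 0 counts, summed to 58.3 to 78.0 CPM in knockout and 87.6 to 96.4 CPM in wild-type libraries. Most of this sum was Aldh3a1, which was called lower (log2 -0.46, SE 0.09, edgeR adjusted p = 0.0017). The 8 blood and immune markers summed to at most 7.73 CPM in knockout and 6.31 CPM in wild-type libraries, and the 6 vessel markers to 68.7 to 73.3 CPM in knockout and 57.1 to 62.7 CPM in wild-type libraries. Most of the vessel sum was Pdgfrb, which did not pass (log2 0.20, SE 0.07, edgeR adjusted p = 0.12), and the scarce Rgs5 was called higher (log2 2.59, SE 0.54, edgeR adjusted p = 0.0035). The part of any of these in the histone values was not tested.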

How the data were processed

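Whole lens total RNA was depleted of ribosomal RNA and made into stranded single-end libraries, per the labels' protocols. HISAT2, HTSeq, edgeR and build GRCm39 appear in the submitters' processing notes, without versions; no source used here gives the strand setting. The authors deposited raw counts per gene on Ensembl 104 features, with feature length in bp and GC fraction, per the description sheet; no column was left unmapped. The authors' deposited table holds a signed fold change (a score never between -1 and 1), q-values from edgeR p-values and mean FPKM.

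Everything else was computed from the counts. Genes passing filterByExpr (11474) were scaled by TMM. Genotype was tested two-sided by quasi-likelihood in edgeR 4.0.16 under R 4.3.3, and p-values were adjusted over all these genes by Benjamini-Hochberg. The alternatives used limma 3.58.1 and DESeq2 1.42.0. An SE is the absolute log2 fold change over the root of the F statistic. FPKM used the deposited lengths, which equal the longest M21 transcript for 68 of 72 members. M21 and RefSeq are on another build than the counts and were matched by Ensembl identifier and by symbol.

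Members and lists were chosen with earlier results of these data known. Named are the 3 highest members per class by FPKM, called members, the 3 largest changes each way among tested members, and called or most abundant genes of each list; other members were named after their values were seen. P-values measure the spread between 3 libraries per group.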

Additional observations from a re-analysis of the deposited data

How the results depend on the processing

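The alternatives were other scalings, other low-count filters, DESeq2, limma-voom, a replicate block, each library left out in turn, and both libraries numbered 3 left out. H1f2 and H2bc4 were called higher in all 15 of them. The number of members called was 2 or 3 when a library was left out, not always the same genes: without wild-type replicate 3, H1f3 was lost (adjusted p = 0.11) and H2ac15 called (adjusted p = 0.023). It was 5 with library size alone, which added H1f1 and H1f5. Restricted to the chromosome 13 and 3 clusters without pseudogenes, a choice made after seeing the data, it was 3.

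Over all genes, library size alone called 1344 genes, 1008 higher and 336 lower, and moved their median to 0.11 (log2). DESeq2 called 574 genes, 2 of them members. Leaving out a library gave 562 (without knockout replicate 1) to 782 calls. With the replicate block there were 781 calls and the same 3 members were called. Same-numbered libraries did not vary together over the tested genes (correlations of deviations 0.05, -0.03 and 0.03). This cannot exclude a pairing by number, and the libraries numbered 3 had a female read pattern in both groups.

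The log2 ratio of class sums moved by more than the replicate spread with library size alone, to 0.31 for H1, 0.31 for H2A and 0.40 for H2B. Without the most abundant member it was 0.082 for H1, 0.40 for H2A and 0.18 for H2B. With H1 genes of chromosome 13 alone, an alternative chosen after seeing the data, it was 0.30. Leaving out a library gave 0.17 to 0.26 for H1, 0.15 to 0.28 for H2A, 0.25 to 0.35 for H2B, 0.58 to 1.02 for H3 and -0.10 to 0.05 for H4.

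Members whose change lay near 0 turned sign. With library size alone H1f0, H1f4 and H2ac20 were at log2 0.098, 0.0025 and 0.060, and without both libraries numbered 3 H4c4 was at -0.080. With a library left out, the log2 fold change ran from -0.096 to 0.049 for H1f0, -0.14 to 0.040 for H2ac20, -0.14 to 0.61 for H2ac13, -0.39 to 0.072 for H4c3, -0.068 to 0.087 for H4c4, -0.38 to 0.040 for H4c8 and -0.17 to 0.65 for H4c14. The cause was not tested. Depth limits the 52 untested members, which had at most 48 counts each over all libraries.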
